A study of Drosophila melanogaster with 384 samples.

Results

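The cells described here are sorted tumor cells of the Drosophila melanogaster larval brain, titled tumor neuroblasts in the labels. They held reads of castor (cas, FBgn0004878, chromosome 3R, 5712975 to 5716805 on BDGP6) and are set against tumor cells of the same plates that held none. The title covers all sorted tumor cells, and the cells with cas differed among themselves in neuroblast markers, as given below. Of 384 sorted wells, 93 tumor cells of plate 3 and 92 of plate 4 had at least 100000 reads and 1000 genes. Among these, 29 cells with at least 20 cas reads are called cas-positive and 110 cells with 0 cas reads are called cas-negative, and the 46 cells with 1 to 19 reads stand apart. The cells were thus selected on cas itself, which is left out of every comparison.

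Tumor cells came from larvae expressing a short hairpin against brat (sh-brat), and control cells from larvae expressing one against mCherry (sh-mCherry). Both groups also carried insc-Gal4, UAS-Dcr2 and UAS-CD8::GFP, so the knockdown and the green membrane label acted wherever insc-Gal4 did, in neuroblasts and in daughters that keep its product. The larvae were reared at 29 °C and taken as wandering larvae of the third instar at 6 to 7 days. Green cells of dissociated central brains, 3 tumor brains (plates 3 and 4) and 5 control brains (plates 1 and 2), were sorted singly, amplified with SMART-Seq2 and sequenced. The tumor brains form 1 pool in which the brain of origin of a cell is not labelled, so both classes of cells come from 1 sample. The comparison therefore carries no test, and plates 3 and 4 show the spread that can be seen.

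Type II neuroblasts divide into intermediate neural progenitors (INPs), which pass through a series of transcription factors while they bud off ganglion mother cells, and each ganglion mother cell divides once more into neurons or glia. Brat is a repressor of translation that keeps the immature INP from turning back into a neuroblast, and its loss in type II lineages fills the brain with neuroblast-like cells. Cas is a zinc finger transcription factor best known as a late member of the temporal series of the embryonic neuroblast, after Hunchback, Kruppel and the Pdm proteins and before Grainy head. In larvae, cas and svp are known to act in an early switch of neuroblast timing.

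The cas reads of the cas-positive cells ran from 34 to 4240 with a median of 1061, and their sum gave 1333 reads per 1000000 (CPM). The values nearest the threshold were 34, 44 and 86 reads just inside it and 12, 4 and 3 reads just outside it. Of the 46 cells between 1 and 19 reads, 36 held a single read. The cas-positive cells made up 15.7% of the kept tumor cells (exact 95% Clopper-Pearson interval 10.8 to 21.7, which like all intervals here covers counting error only), with 12 of 93 cells on plate 3 and 17 of 92 on plate 4. Among 180 kept control cells 7 reached 20 cas reads, 3.89% (1.58 to 7.85), of which 6 were on plate 2.

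**Figure D1:**
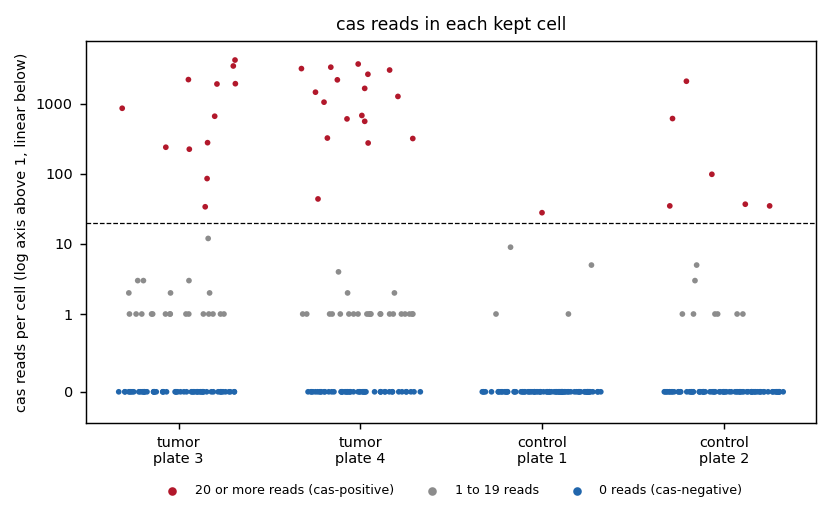
Reads of cas in each kept cell (vertical axis, logarithmic above 1 read) on tumor plates 3 and 4 and control plates 1 and 2, with the threshold of 20 reads as a dashed line. Red points are the 12 and 17 cas-positive tumor cells and the 7 control cells above the threshold, and most cells lie at 0.

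The depth of both classes overlapped. The cas-positive cells held 769005 to 1960187 reads (median 1051752) and the cas-negative cells 185566 to 1821633 (median 1137213). With every cell thinned to 100000 reads, the median number of genes per cell was 2750 in cas-positive and 3239.5 in cas-negative cells, and the order was the same on plate 3 (2900 against 3385) and plate 4 (2750 against 3140). Unthinned, the medians were 3260 and 3679 genes. The last well of each tumor plate was cas-positive, with 226 cas reads on plate 3 and 277 on plate 4, and held the most genes of its plate, 6976 and 7110. Whether these 2 wells held more than 1 cell was not tested, and no doublet caller was run. Without them 24 of the 89 called genes that are list members or otherwise named moved by over 1.5-fold, all 24 of them lower genes whose ratios lay further below 0, and these are given with and without the wells. The call of E(spl)m2-BFM was lost, while Syp, lin-28, mira and tap, given below as not called, were called without these wells. So were Polr1B, danr and aos (lower) and polybromo (higher), members of the lists given below. The knocked-down gene brat, here as a check of the labels, stood at 117.1 CPM in cas-positive and 86.1 CPM in cas-negative tumor cells, against 543 and 328 CPM in the control cells with and without cas.

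A gene was called if it differed at least 2-fold in the same direction in the pooled sum of reads, in the mean of CPM giving each cell equal weight, and on plate 3 and plate 4 each, at a mean of at least 5 CPM over both classes. Of 6352 genes measured besides cas, 243 were higher (3.83%) and 300 lower (4.72%) in cas-positive cells. These 2 shares are the background against which the counts of each gene list are read. The median log2 ratio of all measured genes was 0.07, and the median difference between the ratios of the 2 plates was 0.63. A gene found in 1 class only passed the minimum level through that class, so counts over measured members describe and do not test a list. Genes called higher had a median exonic length of 2648 bases and those called lower 1857.5, against 2163 bases over all measured genes; whether length had a part was not tested.

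**Figure D2:**
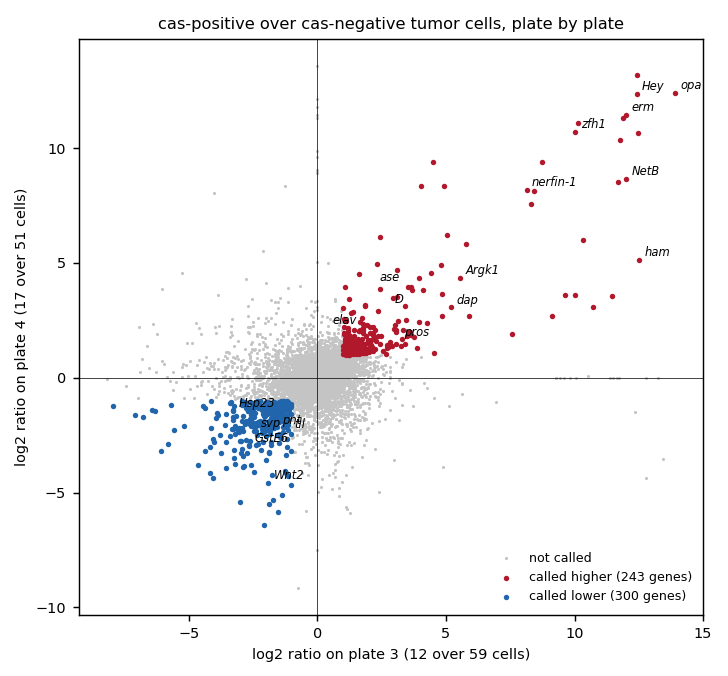
The log2 ratio of cas-positive over cas-negative tumor cells on plate 3 (horizontal axis) and plate 4 (vertical axis) for each of 6352 measured genes. The 243 genes called higher (red) reach ratios above 10 on both plates, as for Hey, erm and opa, while the 300 genes called lower (blue) reach less far from 0.

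INP genes were the list furthest from the median of all genes on each plate. The list holds the factors of the INP temporal series (D, grh, ey) and genes known from immature and maturing INPs, and 6 of its 9 measured members were higher in cas-positive cells and 1 was lower, with a median log2 ratio of 4.92. The gene erm (FBgn0031375, 2L, 1950239 to 1970362) encodes a zinc finger repressor that holds immature INPs back from reversion. It ran from 0 to 1746 CPM in cas-positive cells with a median of 0, and from 0 to 1.83 CPM in cas-negative cells with a median of 0. At least 20 erm reads were found in 12 of 29 cas-positive cells and in 0 of 110 cas-negative cells. Pooled, erm was higher at 199 against 0.06 CPM, a log2 ratio of 11.76 (12.004 on plate 3 and 11.44 on plate 4). Most cas-positive cells thus held little or no erm, and the strongest cell held 23.4% of the erm reads.

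The gene opa (FBgn0003002, 3R, 4852813 to 4869979), which encodes a zinc finger factor known from the young INP, was more concentrated. It reached 2328 CPM in cas-positive cells and 1.03 CPM in cas-negative cells, with a median of 0 in both. The cas-negative cells held 3 opa reads in all, so the log2 ratio of 13.09 has a counting interval of 11.54 to 15.37. Only 6 cas-positive cells held 20 opa reads, and 1 cell held 39.7% of them. The gene ham, a PRDM-type zinc finger gene that limits INP self-renewal, was higher at 166.8 against 2.71 CPM (log2 5.94, 12.50 on plate 3 and 5.14 on plate 4). Ham was found at 20 reads in 10 of 29 cas-positive and 2 of 110 cas-negative cells.

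Of the INP temporal series, Dichaete (D), a SOX factor of the youngest INPs, was higher. D ran from 0 to 5970 CPM in cas-positive cells and from 0 to 1099 CPM in cas-negative cells, with a median of 0 in both. The pooled levels were 840 against 52.1 CPM, a log2 ratio of 4.01 (3.65 and 3.95 on plates 3 and 4), and 13 of 29 against 12 of 110 cells held 20 reads. The Pax6 gene ey, the marker of old INPs, was higher at 31.7 against 0.01 CPM. That log2 ratio of 11.92 rests on 1 cas-negative read (counting interval 9.44 to 17.22) and on 4 cas-positive cells, of which 1 held 57.1% of the reads. The middle factor grh was lower, at 323 against 806 CPM (log2 -1.32). The LIM-only gene Bx was higher at 46.8 against 1.54 CPM (log2 4.92), in 6 against 1 cells at 20 reads. The fork head genes slp1 and slp2 were not called, at 375 against 620 and 124.3 against 188.1 CPM, and bsh had 0 reads in both classes.

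The temporal genes of the embryonic neuroblast other than cas fell into no single direction. D was higher, while grh and the nuclear receptor gene svp were lower. Svp ran from 0 to 147.9 CPM in cas-positive cells with a median of 0, and from 0 to 606 CPM in cas-negative cells with a median of 67.2. The pooled log2 ratio of svp was -2.47 (-2.40 and -2.32 on the plates), and without the 2 last wells it was -4.41. At least 20 svp reads were found in 4 of 29 cas-positive and 69 of 110 cas-negative cells. The zinc finger gene sqz stood at 19.4 against 9.10 CPM and was not called. The early factors were all but missing: hb had 0 CPM in cas-positive and 3.02 CPM in cas-negative cells, where 1 cell held 20 reads, while nub, Kr, pdm2 and ftz stayed at or below 0.07 CPM in each class.

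Among the larval temporal genes, Eip93F, an ecdysone-induced factor of late neuroblasts, was higher at 43.4 against 9.96 CPM (log2 2.12, 3.88 on plate 3 and 1.30 on plate 4). Of its cas-positive reads 42.1% lay in 1 cell, without which the ratio was 1.39, and 7 cells of each class held 20 reads. The BTB factor gene chinmo, a gene of early larval neuroblasts, was not called, with 588 against 792 CPM. Syp, an RNA-binding protein gene of the late window, was not called either, with 1477 against 2663 CPM (log2 -0.85). The RNA-binding protein gene lin-28 stood at 2.34 against 14.9 CPM, with log2 ratios of -3.88 on plate 3 and -0.70 on plate 4, and was not called, and 98.7% of its cas-positive reads lay in the last wells.

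Genes of ganglion mother cells and of type I lineages formed the second list far above the median. Of 7 measured members 5 were higher and 0 lower, with a median log2 ratio of 3.75. The proneural gene asense (ase, FBgn0000137, X, 460747 to 463176) is absent from type II neuroblasts and is known to mark type I neuroblasts and maturing INPs. It ran from 0 to 1481 CPM with a median of 396 in cas-positive cells, against 0 to 430 CPM with a median of 0 in cas-negative cells. Pooled, ase was higher at 448 against 33.3 CPM (log2 3.75, 3.53 and 3.97 on the plates). At 20 reads it was found in 24 of 29 cas-positive cells, 82.8% (64.2 to 94.2), and in 24 of 110 cas-negative cells, 21.8% (14.51 to 30.7).

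The homeobox gene prospero (pros), which drives ganglion mother cells out of the stem cell state, was higher in the sum at 920 against 144.8 CPM (log2 2.67). Its median cell held 657 CPM among cas-positive cells and 64.8 CPM among cas-negative cells, and the ranges overlapped, 0 to 2686 against 0 to 1202 CPM. The zinc finger gene nerfin-1 (FBgn0028999, 3L, 909112 to 912319), which keeps young neurons from dedifferentiating, was higher at 525 against 2.09 CPM (log2 7.97, 8.13 and 8.19 on the plates). It ran up to 2951 CPM in cas-positive and 92.9 CPM in cas-negative cells, and 18 of 29 against 4 of 110 cells held 20 reads. The gene dap, the inhibitor of Cyclin E and Cdk2 at cell cycle exit, was higher at 170.6 against 9.70 CPM (log2 4.14).

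Hey, a bHLH-Orange repressor known from newborn neurons with active Notch, was all but absent from cas-negative cells. Its median was 40.8 CPM and its highest value 4189 CPM in cas-positive cells, against a median of 0 and a highest value of 2.80 CPM in cas-negative cells. Pooled, Hey was higher at 679 against 0.13 CPM, a log2 ratio of 12.34 (12.41 and 12.36 on the plates). At least 20 reads were found in 15 of 29 cas-positive and 0 of 110 cas-negative cells. Removing the strongest cell left the ratio at 12.09. The neurogenin-type gene tap, at 276 against 136.7 CPM, and l(1)sc, at 38.7 against 42.1 CPM, were not called.

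Of the neuronal genes, elav, the RNA-binding protein gene that marks neurons, was higher at 691 against 156.4 CPM (log2 2.14, 2.14 and 2.20 on the plates). The median cell held 365 CPM of elav among cas-positive and 87.5 CPM among cas-negative cells. Elav was thus read in both classes, at 20 reads in 26 of 29 and 75 of 110 cells. Besides nerfin-1, no other member of the 7 measured was called, the median log2 ratio was 0.25, and fne, an elav relative, stood at 82.3 against 111.9 CPM. Summed over the matched neuronal list, the cells ran from 100.9 to 7428 CPM (median 1136) in the cas-positive class and from 37.99 to 2164 CPM (median 532) in the cas-negative class, and the part of neuronal cells in these results was not tested.

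Beside these known genes, several others stood among the 12 highest ratios of genes read in at least 25% of the cas-positive cells. Argk1, arginine kinase, had a median of 1756 CPM in cas-positive cells and 0 in cas-negative cells, and was higher in the sum at 1617 against 53.9 CPM (log2 4.91). It was found at 20 reads in 25 of 29 against 22 of 110 cells. The gene insb was higher at 341 against 24.6 CPM (log2 3.79), in 23 against 31 cells. The homeodomain and zinc finger gene zfh1, at 55.9 against 0.06 CPM, and the netrin gene NetB, at 51.7 against 0.06 CPM, were each higher with 8 against 0 cells at 20 reads. The genes sick (log2 3.99) and Pgant2 (log2 3.76) completed the 12.

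**Figure D3:**
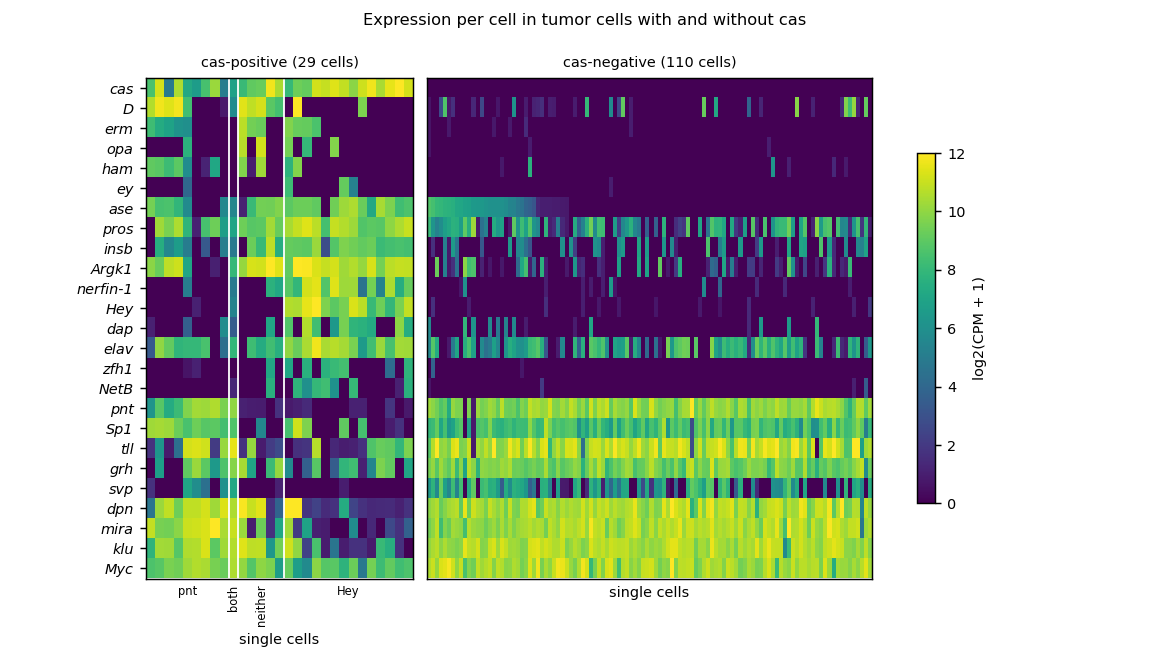
Levels of cas and 24 other genes in each of the 29 cas-positive (left) and 110 cas-negative (right) tumor cells, as log2(CPM + 1) in color. White lines part the cas-positive cells into those with at least 20 reads of pnt, of both pnt and Hey, of neither, and of Hey (9, 1, 5 and 14 cells), and cas-negative cells are sorted by ase.

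The markers of the type II neuroblast were split. The ETS factor gene pointed (pnt, FBgn0003118, 3R, 23290231 to 23346167), which specifies type II neuroblasts, ran from 0 to 1514 CPM with a median of 1.13 in cas-positive cells. In cas-negative cells pnt ran from 0 to 6193 CPM with a median of 1031. Pooled, pnt was lower at 288 against 1074 CPM (log2 -1.90, -1.73 and -2.03 on the plates), and -2.43 without the 2 last wells. The nuclear receptor gene tll was lower as well, at 681 against 1954 CPM (log2 -1.52), with medians of 5.61 and 1821 CPM per cell. Without the last wells tll came to -2.26. The zinc finger gene Sp1 was not called, at 389 against 381 CPM (log2 0.03), and neither was its neighbor btd, at 51.5 against 91.6 CPM (log2 -0.83).

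Counted per cell, 10 of 29 cas-positive cells held 20 pnt reads, as did all but 2 of the 110 cas-negative cells. A cell was called type II-like with at least 5 reads of 3 or more of pnt, btd, Sp1 and tll. By this count 27.6% of the cas-positive cells (8 of 29, interval 12.7 to 47.2) and 97.3% of the cas-negative cells (all but 3 of 110, 92.2 to 99.4) were type II-like. Within type II-like cells alone the log2 ratios of D (4.40), opa (10.58), Hey (5.91), nerfin-1 (2.81) and ase (2.05) were above 2. Dap came to 0.67, and the ratios of pnt (-0.49), tll (-0.33) and svp (-0.76) were under 2-fold. Pnt and tll helped to choose the type II-like cells, so their ratios there are not independent of that choice. Both last wells are among these 8 cells and held all of their opa and nerfin-1 reads and 80 of their 81 Hey reads. Without these wells the 6 remaining cells held D at a log2 ratio of 4.99, erm at 10.10, ham at 6.32 and ase at 2.53, Hey at 1 read and opa and nerfin-1 at 0 reads, while tll came to -1.14 and svp to -2.23. With the last wells the calls among type II-like cells numbered 100 higher and 216 lower, of which 33 and 53 were also called over all cells. The ratios of Bx, sna, Spc25, GstD3, skl, rpr, Toll-6 and Dcps, called as given in their places, had the opposite sign there, and the median number of genes per cell at equal depth was 767 higher in the 8 cas-positive than in the cas-negative type II-like cells, and 383 higher without the last wells. GstD3 (-0.47) and sna (-0.25) were again below 0 without them. Of genes called higher over all cells, Eip93F went from 1.34 to -3.30, nerfin-1 to -1.79 and sd from 0.28 to -0.006 without these wells. The last wells held all 120 Eip93F reads of the 8 cells.

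Of 19 measured neuroblast identity genes 0 were higher and 4 lower, with a median log2 ratio of -0.29. The lower ones were grh, the pioneer factor gene zld (134.3 against 379 CPM, log2 -1.50), the Snail-type repressor gene sna (589 against 1417 CPM, -1.27) and Myc (665 against 1512 CPM, -1.18). Myc, the growth regulator, was read in all cells of both classes, from 27.2 to 1577 CPM in cas-positive and from 172.5 to 3971 CPM in cas-negative cells. The self-renewal genes dpn, klu, wor and mira did not reach 2-fold in the sum. Their per-cell values moved further than their sums: dpn had a median of 167.4 CPM in cas-positive and 1502 CPM in cas-negative cells, and mira 124.7 and 1448 CPM. Dpn was found at 20 reads in 16 of 29 and 110 of 110 cells, and wor in 29 of 29 cells and all but 5 of 110. The last 4 genes were singled out after their values were seen.

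The 29 cas-positive cells differed among themselves. At 20 reads, pnt was found in 10 of them and Hey in 15, and only 1 well, the last of plate 3, held both. Of the other cells 9 held pnt without Hey, 14 held Hey without pnt, and 5 held neither. The 9 cells with pnt, of which 1 is the last well of plate 4, all held Sp1, dpn, mira, wor and klu, 5 of the 9 held erm and 6 held ham. Their median levels were 1852 CPM of dpn, 1918 of mira and 764 of pnt. The 14 cells with Hey and no pnt all held pros, nerfin-1, elav and Argk1, and 13 held ase. Only 3 of the 14 held dpn, 3 mira and 4 erm. Their median levels were 1416 CPM of pros, 1212 of elav and 653 of nerfin-1, against 2.29 CPM of dpn.

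The 5 cells with neither gene all held D, between 344 and 2842 CPM, together with pros and Argk1. Of these cells 3 held erm, whose median over all 5 was 612 CPM. All 4 cas-positive cells with svp also held pnt, and 2 of the 4 were the last wells. The genes zfh1 and NetB were each found in 0 of the 10 cells with pnt. Median cas was 364 CPM in the pnt cells, 586 CPM in the cells with neither gene and 2067 CPM in the Hey cells, with ranges that overlapped (28.6 to 2367, 283 to 3398 and 258 to 4200 CPM). Some of these genes chose the groups, and all cells came from 1 pool, so these counts describe the cells and carry no test.

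Pooled by the amount of cas, the genes followed 3 courses. In the 110 cells with 0 reads, the 46 cells with 1 to 19 reads, the 14 cas-positive cells with less cas (up to 976 CPM) and the 15 with more cas (from 1155 CPM), nerfin-1 came to 2.09, 4.15, 302 and 751 CPM. In the same order ase came to 33.3, 48.5, 354 and 544 CPM, pros to 144.8, 196, 705 and 1139 CPM, and elav to 156.4, 184.3, 424 and 964 CPM. These genes thus had their highest level in the cells with most cas. A second set peaked in the 14 cells with less cas.

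For erm the 4 levels were 0.06, 0.02, 355 and 39.2 CPM, and for D 52.1, 90.2, 1116 and 558 CPM. Ham came to 2.71, 0.02, 258 and 73.4 CPM, and opa to 0.02, 0.02, 353 and 71.4 CPM. The third set was lowest in the cells with most cas. Pnt came to 1074, 1067, 433 and 140 CPM, tll to 1954, 2076, 1056 and 298 CPM, and svp to 120.5, 114.7, 42.9 and 0.13 CPM. Both last wells are among the 14 cells with less cas, and without them these cells held 273.9 CPM of pnt, 547 of tll and 12.8 of svp. Hey came to 744 CPM there without them (574 with them), near the 786 CPM of the cells with more cas. Likewise ase came to 447 CPM, against 544 CPM in the cells with more cas. Dpn was held by the cells with less cas and was low in those with more, at 1558, 1753, 2043 and 209 CPM.

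**Figure D4:**
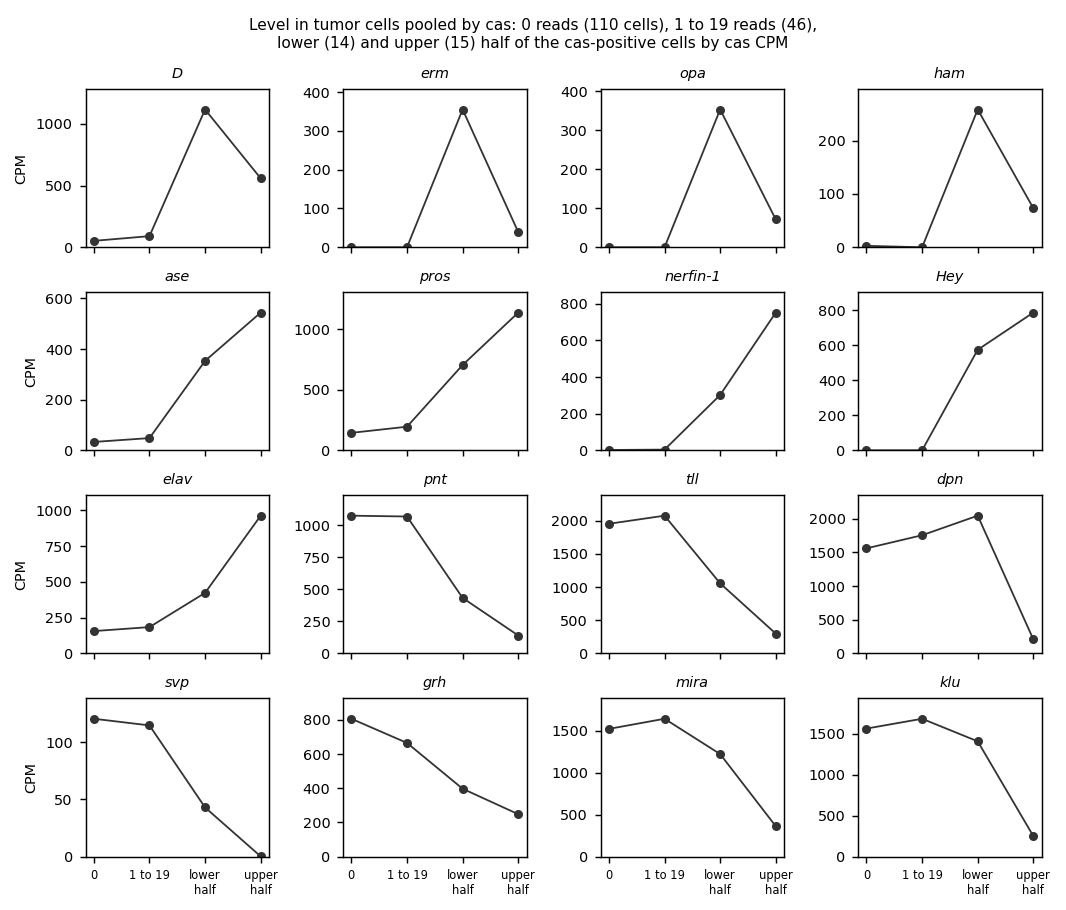
Pooled level in CPM (vertical axes, each from 0) of 16 genes in tumor cells with 0 cas reads, with 1 to 19 reads, and in the 14 cas-positive cells with less and the 15 with more cas. The genes erm, D, ham and opa peak in the cells with less cas, ase, pros, nerfin-1, Hey and elav in those with more, and pnt, tll and svp are lowest there.

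The 46 cells with 1 to 19 cas reads lay near the cas-negative cells in these genes. They held 0 cells with 20 reads of Hey or erm, 45 with pnt and 42 type II-like cells. Of them 12 held 20 ase reads, 26.1% (14.3 to 41.1). Their median number of genes at equal depth was 3206.

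Of 14 measured glycolytic genes 0 were higher and 4 lower, 13 had a ratio below 0, and the median log2 ratio was -0.61. Lactate dehydrogenase, Ldh, was lower at 254 against 704 CPM (log2 -1.47), with medians of 5.29 and 444 CPM per cell and 13 of 29 against 90 of 110 cells at 20 reads. Hexokinase Hex-A (138.2 against 364 CPM, -1.40), Pglym78 (957 against 2375 CPM, -1.31) and Gapdh1 (997 against 2129 CPM, -1.09) were the other 3. Of 67 nuclear-encoded respiratory chain genes only the complex III gene ox was lower (28.9 against 71.4 CPM) and 0 were higher, with a median of -0.33. The 7 mitochondrially encoded genes (median -0.16) and the 14 genes of mitochondrial dynamics (0.05) held 0 calls.

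Glutathione and redox genes held 5 lower calls and 0 higher of 21 measured, all 5 of them glutathione S-transferases. GstD1 was lower at 153.4 against 600 CPM (log2 -1.97), GstD9 at 322 against 909 CPM (-1.50), GstD3 at 26.9 against 80.0 CPM (-1.58), GstO2 at 73.7 against 175.7 CPM (-1.25) and GstE6 at 16.59 against 117.6 CPM (-2.82). Members of the GstD cluster are near copies of each other, so reads could be split between them. The last wells held 89.8% of the GstE6 reads of cas-positive cells, and without them its ratio was -5.94, that of GstD1 -2.73 and that of GstD3 -2.61.

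Stress and cell death genes went both ways, with 3 higher and 4 lower of 25 measured. The pro-apoptotic genes skl (42.2 against 2.19 CPM, log2 4.27) and rpr (27.04 against 3.34 CPM, 3.02) were higher, in 7 against 4 and 6 against 7 cells at 20 reads. The strongest cell held 41.1% of the skl reads and 38.2% of the rpr reads, and without it the ratios were 3.55 and 2.38. The small heat shock genes Hsp23 (375 against 1767 CPM, -2.24, -3.29 and -1.41 on the plates) and Hsp26 (384 against 1611 CPM, -2.07) were lower. Thor, the 4E-BP translation inhibitor (73.7 against 237 CPM, -1.69), and the Fos gene kay (41.7 against 95.7 CPM, -1.20, and -1.78 without the last wells) were lower too, and Irbp18 (130 against 59.3 CPM, 1.14) was higher.

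Cell cycle lists had medians above that of all genes and few calls. Of 38 measured G2 and mitosis genes 4 were higher and 0 lower, with a median log2 ratio of 0.63, and of 28 replication genes none was called in either direction, with a median of 0.54. The kinetochore gene Spc25 (107.05 against 37.3 CPM, 1.52), the kinesin gene ncd (528 against 221 CPM, 1.26), the PRC1-type gene feo (732 against 295 CPM, 1.31) and the mitotic kinase gene gwl (155.1 against 71.5 CPM, 1.12) were higher. The phosphatase gene stg, the Cdc25 of mitotic entry, stood at 408 against 91.4 CPM, with 4.03 on plate 3 and 0.91 on plate 4, and was not called. PCNA, the replication clamp, stood at 529 against 374 CPM and CycB at 106.7 against 65.2 CPM, and neither was called. Of 30 growth and ribosome genes, Myc was the only call with the last wells included, and Polr1B was called lower without them.

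Adhesion and guidance genes formed the list with most calls, 11 higher and 0 lower of 26 measured, with a median log2 ratio of 1.11 (1.00 and 1.31 on the plates). These genes serve axon growth and contact between cells. Besides NetB they were the repellent gene sli (94.3 against 13.4 CPM), its receptor gene robo1 (19.5 against 6.497), Nrg, an L1-type adhesion molecule (496 against 179.1), Ten-m (100.5 against 25.1), Sema1a (94.4 against 36.8), Ephrin (61.9 against 27.3), trn (271 against 80.2), Dscam1 (62.2 against 6.43), side (31.5 against 0.20) and Toll-6 (38.02 against 0.65 CPM). Side and Toll-6 rested on few cells, with 60.8% and 73.2% of their reads in 1 cell, while Dscam1 was found at 20 reads in 15 of 29 against 10 of 110 cells.

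Signalling genes gave scattered calls. Of 13 measured Notch targets 2 were higher and 1 lower. E(spl)m7-HLH, a bHLH repressor, was higher at 2033 against 608 CPM (log2 1.74), with medians of 988 and 259 CPM. E(spl)m2-BFM, a Bearded family gene, was higher at 28.2 against 3.11 CPM with 47.1% of its reads in 1 cell, and Myc was the lower target. E(spl)mgamma-HLH, a target active in neuroblasts and singled out after its values were seen, was not called, at 3543 against 6754 CPM (log2 -0.93). Of 10 Notch pathway genes none was called in either direction.

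In the BMP and Wnt list Wnt4 was higher, at 44.3 against 0.01 CPM, where the cas-negative cells held 1 read (log2 12.40, counting interval 9.92 to 17.71) and 1 cas-positive cell held 54.01%. Wnt2 (5.27 against 38.9 CPM) and the Schnurri gene shn (4.58 against 22.7 CPM) were lower, and so was the Hedgehog effector gene ci at 2.99 against 11.3 CPM. Without the last wells the log2 ratio of Wnt2 was -3.83 (-2.88 with them), that of shn -4.28 (-2.31) and that of ci -5.14 (-1.91). In the EGF receptor list, aop, the ETS repressor that opposes Pnt, was lower at 53.99 against 171.1 CPM (log2 -1.66), beside pnt itself. Of the ecdysone genes, the importer gene Oatp74D, also called EcI, was lower at 49.3 against 244 CPM (log2 -2.31, -4.33 without the last wells), as was Hr39 (4.12 against 14.51 CPM, -1.82 and -2.82 without them), and Eip93F was the only higher one of 11.

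Spatial patterning and homeobox genes held 6 higher and 2 lower calls of 26 measured. The pooled median of 5.13 is not matched by the plates (0.09 and 0.00). The Iroquois gene mirr had 410 CPM in cas-positive cells of plate 3 and 0 on plate 4, and the Pax6 gene toy 0 on plate 3 and 241 CPM on plate 4, so neither was called. The homeobox gene hbn was higher on both plates, at 117.2 against 2.50 CPM (log2 5.55). The doublesex relative dmrt99B (5.46 against 43.1 CPM) and the Six-type gene so (3.81 against 12.4 CPM) were lower. The last wells held all but 1 of the dmrt99B reads and 71.3% of the so reads of cas-positive cells. The log2 ratio of dmrt99B was -2.98, with 0.035 CPM left in cas-positive cells without these wells, and that of so was -1.70, or -3.32 without them. Of the sex genes, msl-2 was higher (30.9 against 10.7 CPM) and fru lower (72.7 against 271 CPM, log2 -1.90) of 9 measured. Among 30 chromatin genes erm was the only higher and Asx (14.3 against 40.6 CPM) the only lower call. Without the last wells polybromo was called higher as well.

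**Figure D5:**
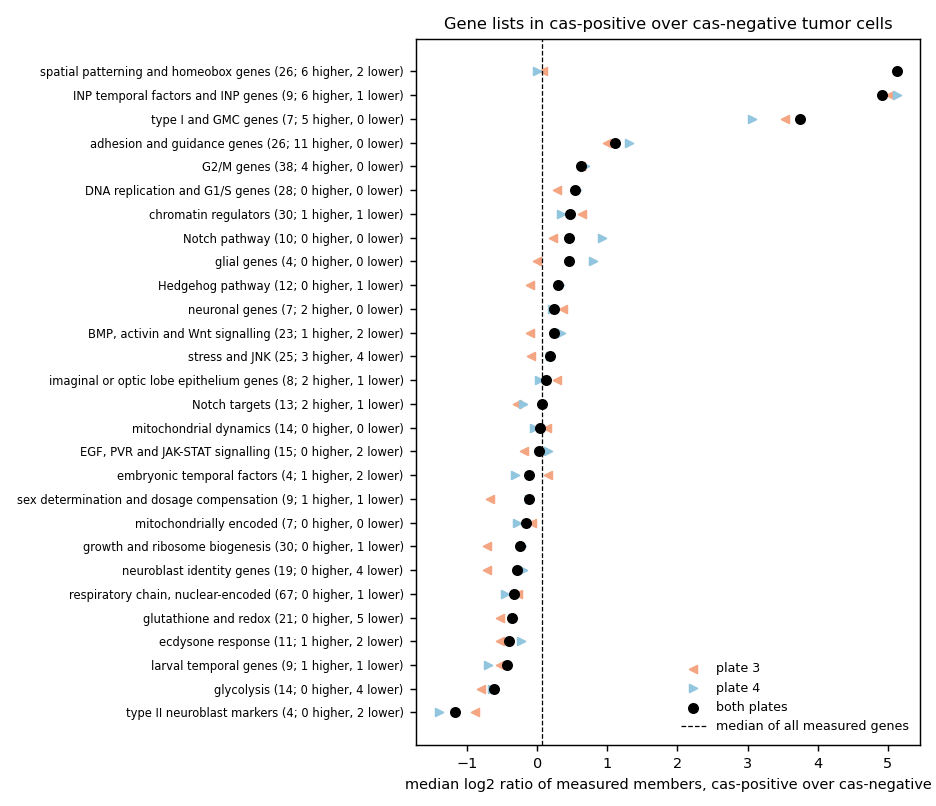
Median log2 ratio of cas-positive over cas-negative tumor cells over the measured members of each list with at least 4 of them, for both plates together (black) and for plates 3 and 4 (triangles), with the median of all measured genes at 0.07 as a dashed line. INP genes (4.92), type I and ganglion mother cell genes (3.75) and adhesion genes (1.11) lie highest on both plates, type II markers (-1.18) lowest, and the spatial list is high in the pool only.

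The 12 lowest ratios among genes read in at least 25% of the cas-negative cells lay between -3.04 and -2.61. The sine oculis family gene Six4 was lower at 25.5 against 170.8 CPM (log2 -2.74), with medians of 0 and 88.5 CPM per cell, and pxb at 24.6 against 161.2 CPM (-2.71), with medians of 0 and 58.3 CPM. Six4 was found at 20 reads in 3 of 29 against 65 of 110 cells. Without the last wells Six4 came to -5.91 and pxb to -4.23. The vesicle gene Vps45 (4.30 against 27.4 CPM), the channel gene Best1 (3.84 against 23.8 CPM), the cullin gene Cul6 (1.59 against 13.04 CPM), Wnt2 and GstE6 were further members. The others, CG42394, CG12288, CG15877, CG2767 and CG6426, lay between 2.31 and 35.2 CPM in each class. Without the last wells Vps45 came to -3.92, Best1 to -3.39, Cul6 to -4.53, CG42394 to -4.15, CG12288 to -4.04, CG2767 to -3.30 and CG6426 to -3.34. The ID FBgn0262735, singled out after its values were seen, was lower at 402 against 1763 CPM (log2 -2.13, and -3.95 without the last wells). It matched no symbol, so which gene it stands for was not settled, and it may be a list gene under a retired ID. At least 20 of its reads were found in 9 of 29 against 87 of 110 cells.

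Lists of other cell types were looked at next. Of 10 matched hemocyte genes 8 had 0 reads in cas-positive and 5 in cas-negative cells, and the defining ones Hml, He, NimC1 and eater were at 0 in both. In the glial list 4 of 10 were measured and none was called, and alrm and gcm2 were at 0 in both. The glial determinant gcm stood at 40.8 against 3.74 CPM in 3 against 1 cells at 20 reads, all on plate 4. Of 8 measured imaginal or optic lobe genes sd (455 against 156.7 CPM) and Lim1 (14.72 against 0.52 CPM) were higher and ft (2.87 against 14.9 CPM, log2 -2.38, -3.91 without the last wells) lower. Of the trachea and muscle list only Mef2 was measured (6.67 against 17.01 CPM, not called). The part of such cells in the results was not tested.

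Control cells with cas offer a second view with few cells and, in most of them, little cas. Among these 7 control cells the cas reads ran from 28 to 2112 with a median of 37. The strongest cell held 2112 of their 2965 cas reads, and the median of the cas-positive tumor cells was 1061. Only 1 of the 7 was on plate 1, and it held 7758 genes, the most of that plate (median 5474, unthinned). Whether it held more than 1 cell was not tested, and the control ratios were not repeated without it. Hey and erm each reached 20 reads in 3 of the 7. Among control cells with no cas reads, 14 (8.7%) held 20 Hey reads and 34 (21.1%) held 20 erm reads. The 7 control cells with 20 cas reads, against 84 and 77 cells of plates 1 and 2 with none, showed Hey at 635 against 52.3 CPM (log2 3.60), nerfin-1 at 186.3 against 10.4 CPM (4.17), erm at 151.5 against 23.8 CPM (2.67) and opa at 117.5 against 13.5 CPM (3.12). Elav stood at 375 against 79.1 CPM, a log2 ratio of 2.25. D, at 138.4 against 156.4 CPM, ase, at 204 against 158.1 CPM, and svp, at 72.5 against 75.4 CPM, were within 2-fold there. Pnt stood at 34.8 against 14.8 CPM in control cells, with 1 and 8 cells at 20 reads, while in the tumor it was lower in cas-positive cells. Neither this nor any other difference between tumor and control ratios was tested, and plate and group cannot be told apart.

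The genes around cas were set beside it. Of the genes within 50 kb on 3R, Dcps, a scavenger enzyme of mRNA caps, was the only call, higher at 137.96 against 56.4 CPM (log2 1.29, 1.49 and 1.30 on the plates). Wdr33 (log2 0.57), Madm (0.87), Sec8 (0.77) and Sym (-0.01) were not called.

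Among other ways to divide the tumor cells, ase and Ldh were called as given above. Gadd45, a stress sensor gene, stood at 162.4 against 226 CPM with 37.9% (20.7 to 57.7) against 60.9% (51.1 to 70.1) of cells at 20 reads, and was not called. The use of strand in counting was not given, so reads of zfh1, svp, Bx, pros, elav, Myc, grh, ci, aop, Hr39, msl-2, ox, Pglym78, Cul6, CG15877 and CG2767 cannot be told apart from those of the genes that overlap their exons.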

How the data were processed

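Per the labels' protocols, cells were sorted singly and amplified by SMART-Seq2 with 18 PCR cycles and no molecular identifiers. The deposited table holds read counts per gene and cell made by the authors, not normalized. The submitters' processing notes name the builds BDGP6 and dm6. Aligner, counter and strand setting are not given in these sources. Plates were read from the well names in the labels.

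Reads were summed per class of cells and given per 1000000 reads (CPM). A class with 0 reads was set to 3 reads. The pooled and per-plate log2 ratios were set to 0 where both classes held 3 reads or fewer. They were also set to 0 where the class raised to 3 reads would have come out higher. A ratio of exactly 0 thus does not by itself mean equal levels. Intervals are exact at 95% (Poisson, Clopper-Pearson, conditional binomial) and cover counting error only. Shares and genes per cell used cells thinned to 100000 reads where stated. No doublet caller was run.

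The members, the 31 gene lists and the alternatives were chosen with earlier results of these data known. Of 666 distinct list genes 57 matched no symbol, such as Imp and br, and are in no value under their names. Their IDs may be retired, so features printed by ID, such as FBgn0262735, may be among them. Genes named are the 12 highest and 12 lowest called ratios with a read in at least 25% of cells of the higher class, the 4 members of a list with the largest ratios, all genes of 4 lineage lists, genes of other divisions of the tumor, and genes within 50 kb of cas. Other list members are named because they were called, and further genes are marked where they appear. Symbols and coordinates came from the gene name table and Ensembl release 115 on BDGP6.

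Alternatives covered cell weights, thinning, scaling (TMM from edgeR 4.0.16, median of ratios from DESeq2 1.42.0), cas thresholds, cell filters, each plate, the minimum level and type II-like cells. Leaving out the last wells was chosen after seeing the data. The class ratios and the rule for calling genes were tested on simulated reads. The other steps were not. Tools were Python 3.11.15, numpy 2.4.6, pandas 2.3.3, scipy 1.17.1, matplotlib 3.10.9 and R 4.3.3.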

Additional observations from a re-analysis of the deposited data

Results flagged for a closer look

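Of 69 called genes followed, 17 had ratios of cells with cas over cells without cas of opposite sign in tumor and in control cells, and in 4 of the 17 the control ratio was also at least 2-fold. These differences were not tested, and the 7 control cells with cas include the cell with most genes of plate 1. Pnt was lower in cas-positive tumor cells (log2 -1.90), while the control cells gave 1.23. Sna was lower in the tumor (-1.27), while the control cells gave 1.58. Eip93F was higher in the tumor (2.12), while the control cells gave -1.06. Toll-6 was higher in the tumor (5.86), while the control cells gave -2.53, from 5 reads in the 7 control cells with cas.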

How the results depend on the processing

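With other cell weights, thinning, scaling, cas thresholds or cell filters, 219 to 284 genes were higher and 275 to 382 lower, beside 243 and 300. Without plate 3 there were 712 higher (11.3%) and 797 lower (12.6%), and without plate 4 901 (14.3%) and 922 (14.6%), where 1 plate fewer had to meet the rule. With no minimum level 610 were lower (6.38%), and at 20 CPM 2.72% of 5078 genes. Among type II-like cells 100 were higher (1.58%), and the ratios of Bx (-1.67), sna (0.016), Spc25 (-0.11), GstD3 (0.067), skl (-2.92), rpr (-0.67), Toll-6 (-1.17) and Dcps (-0.045) changed sign; the cause was not tested. Without the 2 last wells 283 were higher and 376 lower, of which 237 and 284 are shared with the counts above. The difference in median genes per cell at equal depth, -489.5 between cas-positive and cas-negative cells, came to -419 without thinning, -371 at 5 cas reads, -597 with a stricter cell filter, -390 without plate 3 and 767 among type II-like cells (383 without their 2 last wells). Of 69 called genes followed through the alternatives, 61 had the opposite sign in none of them. The size of the ratio stayed at least 2-fold throughout for 39, whatever its sign. These 39 include Bx, skl and Toll-6, which changed sign among type II-like cells. The 61 include Wnt4 and side, whose ratios were 0 there. No paired analysis was possible because each class is 1 pool of cells. The 29 cells and 1 pool limit every value, and reads include PCR copies.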
